A study of Saccharomyces cerevisiae with 16 samples.

Results

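The loading change described here is the interaction of mRNA fraction and electroporated RNA in budding yeast (Saccharomyces cerevisiae). For each gene and each replicate number from 1 to 3, the log2 ratio of polysomal over total CPM (reads relative to the library's total) with rancRNA_18-M2 was reduced by the same ratio with no RNA. A positive value means that relatively more of a gene's mRNA was found with polysomes after electroporation of rancRNA_18-M2. The 12 libraries of these groups were used, of 16 deposited files that hold 15 distinct libraries. There were 3 libraries of polysomal and 3 of total mRNA with rancRNA_18-M2, and 3 of polysomal and 3 of total mRNA with no RNA. All 12 came from spheroplasts, cells freed of their wall, of the strain trm10∆, which lacks the gene of a tRNA methyltransferase, so the cells that received no RNA carry the deletion too. The spheroplasts were electroporated, left to recover and lysed. RNA was taken either from the cleared lysate or from gradient fractions with polysomes that had been combined, and poly(A) RNA was sequenced. The libraries electroporated with rancRNA_18 itself did not enter the main values. The labels do not say how rancRNA_18-M2 and rancRNA_18 differ, and no control RNA of unrelated sequence is among the groups compared.

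Polysomes are mRNAs that carry several ribosomes at once, and they separate from single ribosomes and free mRNA in a density gradient because they sediment faster. The share of an mRNA that sediments with polysomes depends on how often ribosomes start on it, how long they stay and how long its coding sequence is. RancRNAs are short noncoding RNAs found bound to ribosomes, and rancRNA_18 is a fragment of the TRM10 mRNA that was described in yeast as an inhibitor of protein synthesis under salt stress. The ratio in each gene is relative to the other genes of the same libraries, so a shift shared by all mRNAs would not appear in it. The count files hold no value for the amount of polysomes or for the uptake of the electroporated RNA.

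Reads in genes numbered 16691019 to 31148081 per library, the highest being polysomal replicate 3 with no RNA and the next 21962246. Between 6331 and 6486 genes had reads. TRM10, the deleted gene, had 0, 0 and 0 reads in polysomal mRNA and 1, 0 and 2 reads in total mRNA with rancRNA_18-M2, against 5, 4 and 2 in polysomal mRNA and 0, 3 and 0 in total mRNA with no RNA. All of these lie near the 3 reads that a count of 0 allows, which is 0.0963 to 0.18 CPM and covers counting error only, so no ratio is given for it. Libraries with the same number deviated together from their group means (r from 0.494 to 0.835 in 18 pairs). The scaling factor of polysomal replicate 1 with rancRNA_18-M2 was 0.748, lower than the 0.882 to 1.17 of the other libraries.

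Across genes, loading with rancRNA_18-M2 followed loading with no RNA. The mean log2 ratio over the 3 numbers correlated between the electroporations at Pearson's r = 0.852 and Spearman's rho = 0.846 over 5949 genes, which are not independent replicates. No gene passed for the change between them. At an adjusted p under 0.05, 0 of 5949 genes (0%) were called by edgeR's quasi-likelihood test, with or without the replicate number as a block. Before adjustment, 4 genes without the block and 49 with it had a p under 0.05 by this test. A share of 0.05 of the genes tested would be 297.45. Both counts lie far below it, so the lack of calls alone does not show that loading was unchanged. DESeq2 also called 0 genes, with 10 at an unadjusted p under 0.05. The median fitted change was 0.0077 on the log2 scale, and 3118 genes (52.4%) lay above 0.

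**Figure D1:**
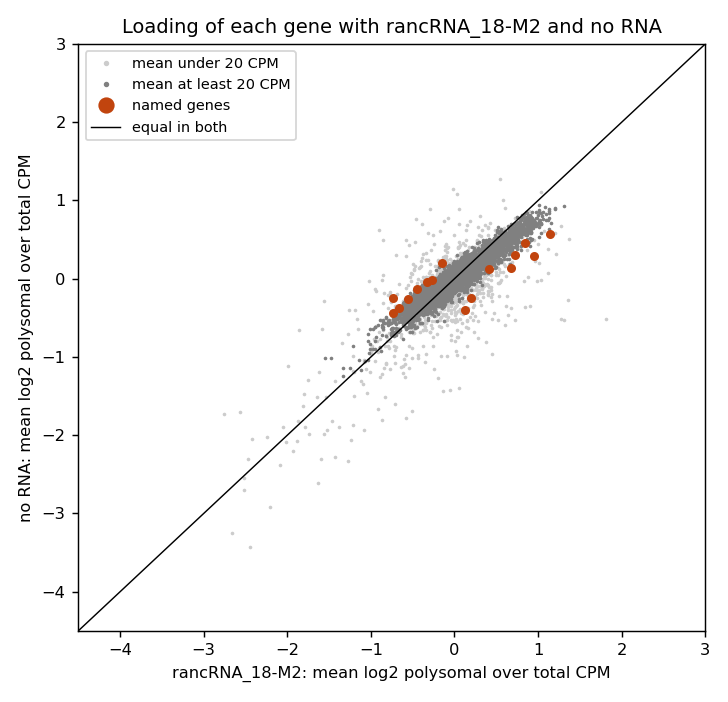
Mean log2 polysomal over total CPM of each of 5949 genes with rancRNA_18-M2 (horizontal axis) and with no RNA (vertical axis), over 3 replicate numbers each. Most genes lie close to the line of equal values, with r = 0.852, and the 16 named genes, chosen by a rule that uses this change, lie on either side of it.

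Both sides of the change were also tested alone. Polysomal against total mRNA gave 10 genes with rancRNA_18-M2 (0.168%) and 12 with no RNA (0.202%), all of them lower in polysomes. Leaving out 1 library at a time gave 1 to 22 genes with rancRNA_18-M2 and 2 to 12 with no RNA, lowest without polysomal replicate 2 of rancRNA_18-M2 and without polysomal replicate 3 of no RNA. With the replicate block the counts were 1852 genes with rancRNA_18-M2 (31.1%), 973 higher and 879 lower in polysomes, and 1204 with no RNA (20.2%), 695 higher and 509 lower. These unequal counts do not test a difference between the electroporations, for which the test is the loading change itself. Between rancRNA_18-M2 and no RNA, 0 genes were called in polysomal mRNA, with 26 at an unadjusted p under 0.05, and 0 in total mRNA, with 24. With the block these comparisons again had 0 called genes, with 350 at an unadjusted p under 0.05 in polysomal mRNA and 376 in total mRNA. These 2 counts stand beside the 297.45 that a share of 0.05 of the genes would give. The spread of loading across the 4409 genes with a mean of at least 20 CPM was wider with rancRNA_18-M2 in each number. Its SD over genes was 0.37, 0.44 and 0.42 with rancRNA_18-M2, against 0.30, 0.41 and 0.31 with no RNA, on the log2 scale. The values of the groups overlap, since no RNA number 2 lies above rancRNA_18-M2 number 1.

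How small a change the 12 libraries could show depended on level. The 95% interval of a gene's change, not adjusted for the number of genes, had a median width of 0.71 to either side without the block. It lay within 1 log2 unit of 0 on both sides for 4100 genes (68.9%). At a mean of at least 20 CPM this held for 3504 of 4409 genes (79.5%), and below that level for 596 of 1540 (38.7%). With the replicate block the median width was 0.36 to either side, and 5376 genes (90.4%) lay within that bound, as did 4390 of the 4409 at 20 CPM or more (99.6%), where the median width was 0.34. A fitted change beyond 1 log2 unit was found in 61 genes, all under 20 CPM, and the median size of the change over all genes was 0.10. For most genes at 20 CPM or more these intervals leave out a change of more than 2-fold in both fits, and with the block they leave out smaller ones too. No gene at that level had an interval without 0 in the fit without the block, and 14 had one with it.

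The 4 genes with an unadjusted p under 0.05 were singled out after their values were seen, and all had means under 2 CPM. YLR311C had 12, 9 and 23 reads in polysomal and 2, 6 and 2 in total mRNA with rancRNA_18-M2, against 8, 2 and 13 in polysomal and 18, 5 and 8 in total mRNA with no RNA. The small nucleolar RNA snR9 had 19, 19 and 28 polysomal and 26, 52 and 42 total reads with rancRNA_18-M2, against 15, 12 and 22 polysomal and 52, 58 and 57 total reads with no RNA. The other 2, YPR002C-A and YOL024W, had 1 to 28 reads in each of the 12 libraries. All 4 stood above 0, with fitted changes of 1.24 to 2.94, and their adjusted p was 1 by edgeR's quasi-likelihood test.

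The 3 replicate numbers gave loading changes that did not share an order of genes. Across 5949 genes the changes in numbers 1 and 2 correlated at r = -0.25, those in numbers 1 and 3 at r = -0.04 and those in numbers 2 and 3 at r = 0.19. At a mean of 20 CPM or more the values were -0.52, -0.05 and 0.34. The SD of the change across genes was 0.43, 0.37 and 0.36 in numbers 1, 2 and 3, and 0.21 for their mean. The change was above 0 in all 3 numbers for 632 genes (10.6%) and below 0 in all 3 for 646 (10.9%). All 3 ratios with rancRNA_18-M2 lay above all 3 with no RNA for 177 genes (2.98%) and below them for 168 (2.82%), so the groups did not overlap in 345 genes (5.8%). That lies below the share of 0.1 of splits into 3 and 3 values that separate them, so non-overlap does not single out these genes.

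**Figure D2:**
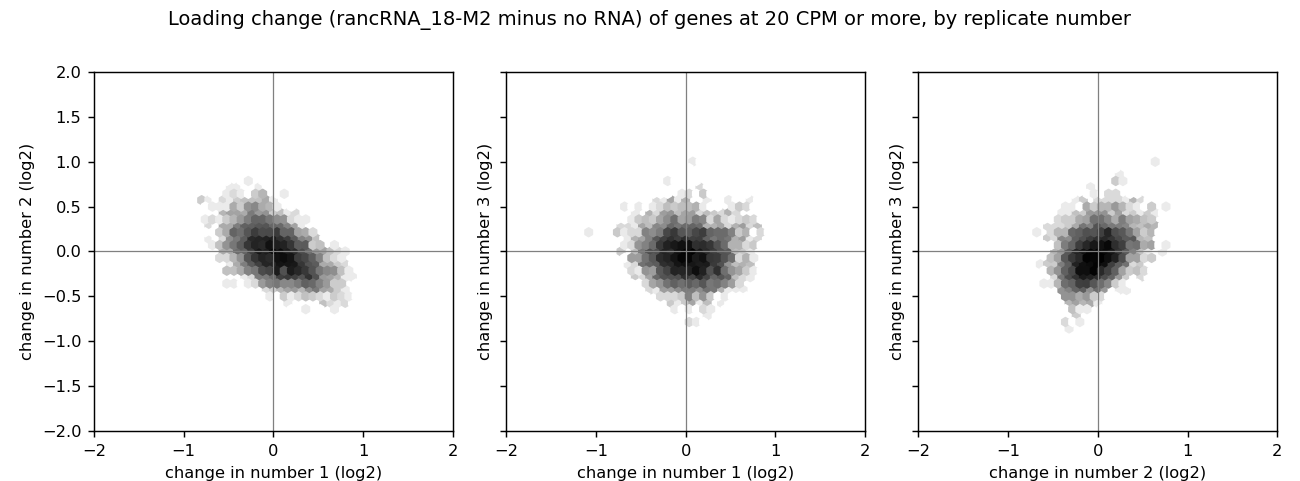
Loading change of each gene at 20 CPM or more in 1 replicate number against another, in log2 units. Darker hexagons hold more genes on a log scale. The cloud of numbers 1 and 2 falls to the right (r = -0.52), that of numbers 1 and 3 has no slope (r = -0.05), and that of numbers 2 and 3 rises (r = 0.34).

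Because no gene was called, 8 genes in each direction were named as those with the smallest p at 20 CPM or more that had the same direction in all 3 numbers. They are given as values, not as genes that changed. Fitted changes and SEs of genes, here and for the lists below, are from the fit without the replicate block unless the block is named. That SE leaves out the pairing by number. The rule itself favours separated groups. Of 4409 genes at this level, 915 had the same direction in all numbers, 417 above and 498 below 0. None of the 16 had an adjusted p under 0.05 in any fit with a block, and the adjusted p of each was 1 by edgeR's quasi-likelihood test.

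TOM7, a small subunit of the translocase through which proteins enter mitochondria, stood highest. It had 53.2, 68.7 and 71.6 CPM in polysomal and 35.9, 31.8 and 31.2 CPM in total mRNA with rancRNA_18-M2, against 58.3, 59.6 and 33.3 CPM in polysomal and 41.3, 51.4 and 29.6 CPM in total mRNA with no RNA. Its log2 ratios of polysomal over total were therefore 0.57, 1.11 and 1.20 with rancRNA_18-M2 and 0.50, 0.21 and 0.17 with no RNA. The groups did not overlap, although in number 1 they differed by only 0.07. The fitted change was 0.67 (SE 0.34, interval -0.07 to 1.41). With the replicate block it was 0.69 (SE 0.26), with an unadjusted p of 0.021 and an adjusted p of 1 by edgeR's quasi-likelihood test. The level in total mRNA was lower with rancRNA_18-M2 by a log2 fold change of -0.31, and the level in polysomal mRNA was higher by 0.36, neither of them called.

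TFB5, a small subunit of the transcription and repair factor TFIIH, had log2 ratios of 0.76, 0.76 and 0.67 with rancRNA_18-M2 and 0.09, 0.67 and 0.16 with no RNA. The ratio with no RNA in number 2 lay just below the lowest ratio with rancRNA_18-M2, and the fitted change was 0.42 (SE 0.23). PET54, a mitochondrial factor needed for translation of the cytochrome oxidase subunit COX3, had 0.35, 0.50 and 0.37 with rancRNA_18-M2 and 0.19, 0.27 and -0.09 with no RNA, for a change of 0.29 (SE 0.19). CNL1, a subunit of the endosomal complex BLOC-1, had 0.65, 0.84 and 1.03 with rancRNA_18-M2 and 0.50, 0.55 and 0.31 with no RNA, for a change of 0.41 (SE 0.26). GMH1, a Golgi membrane protein, was the named gene whose groups overlapped. Its log2 ratios were 0.20, -0.08 and 0.46 with rancRNA_18-M2 and -0.57, -0.10 and -0.06 with no RNA.

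The remaining genes on the higher side have no role that is given here. YER053C-A had log2 ratios of 0.14, -0.10 and 0.33 with rancRNA_18-M2 and -0.46, -0.28 and -0.44 with no RNA, for a change of 0.53 (SE 0.29). YCR024C-B had 0.48, 0.29 and 1.24 with rancRNA_18-M2 and -0.06, 0.18 and 0.28 with no RNA, for a change of 0.60 (SE 0.36). For YGR182C, which is not among the annotated locus tags, the ratios were 0.76, 1.20 and 1.47 with rancRNA_18-M2 and 0.64, 0.58 and 0.50 with no RNA. Its change of 0.60 (SE 0.37) lay almost wholly in total mRNA, where it was lower with rancRNA_18-M2 by a log2 fold change of -0.53, against 0.07 in polysomal mRNA.

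On the lower side, BUL1, an adaptor of the ubiquitin ligase Rsp5, had the smallest p. It had 33.7, 32.4 and 36.3 CPM in polysomal and 38.5, 38.4 and 36.6 CPM in total mRNA with rancRNA_18-M2, against 35.8, 32.6 and 41.9 CPM in polysomal and 31.0, 30.6 and 33.7 CPM in total mRNA with no RNA. The log2 ratios were -0.19, -0.24 and -0.01 with rancRNA_18-M2 and 0.21, 0.09 and 0.31 with no RNA. BUL1 was the only one of the 16 whose ratios lay on opposite sides of 0, below it in all 3 numbers with rancRNA_18-M2 and above it in all 3 with no RNA. Its changes by number were close to each other, at -0.40, -0.34 and -0.32, and the fitted change was -0.36 (SE 0.19, interval -0.77 to 0.05). With the replicate block it was again -0.36 (SE 0.14), with an unadjusted p of 0.019 and an adjusted p of 1 by edgeR's quasi-likelihood test.

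PMI40, the phosphomannose isomerase that supplies mannose for glycosylation and the cell wall, had the lowest fitted change of the named genes, -0.48 (SE 0.31). It had 111, 76.3 and 68.2 CPM in polysomal and 171, 127 and 123 CPM in total mRNA with rancRNA_18-M2, against 125, 98.3 and 96.5 CPM in polysomal and 122, 146 and 112 CPM in total mRNA with no RNA. The log2 ratios were -0.63, -0.74 and -0.85 with rancRNA_18-M2 and 0.04, -0.57 and -0.22 with no RNA. They did not overlap, although number 1 with rancRNA_18-M2 lay close to number 2 with no RNA.

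The other genes named on the lower side act in ribosome assembly, in tRNA modification, at the plasma membrane, in the endoplasmic reticulum and in lipid synthesis. ERB1, a factor of large ribosomal subunit assembly, had log2 ratios of -0.54, -0.49 and -0.64 with rancRNA_18-M2 and 0.00, -0.46 and -0.34 with no RNA. ABP140, a tRNA methyltransferase that also binds actin, had -0.64, -0.77 and -0.59 with rancRNA_18-M2 and -0.15, -0.55 and -0.41 with no RNA. SUR7, a protein of the eisosome domains of the plasma membrane, had -0.58, -0.81 and -0.83 with rancRNA_18-M2 and -0.53, -0.45 and -0.36 with no RNA. For each of these the ratios with rancRNA_18-M2 lay below those with no RNA, and the fitted changes were all -0.30, with an SE of 0.20 to 0.21.

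GTB1, the beta subunit of glucosidase II in the endoplasmic reticulum, had log2 ratios of -0.39, -0.44 and -0.15 with rancRNA_18-M2 and 0.05, -0.05 and -0.12 with no RNA. ELO1, a fatty acid elongase, had -0.42, -0.18 and -0.20 with rancRNA_18-M2 and 0.00, -0.06 and 0.02 with no RNA. ERG9, squalene synthase of the ergosterol pathway, had -0.31, -0.54 and -0.47 with rancRNA_18-M2 and -0.02, -0.30 and -0.07 with no RNA. Their fitted changes ran from -0.32 to -0.25. The ELO1 mRNA was the exception among the genes on the lower side in that it was lower with rancRNA_18-M2 in both fractions, by log2 fold changes of -0.42 in polysomal and -0.17 in total mRNA, which were not called.

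**Figure D3:**
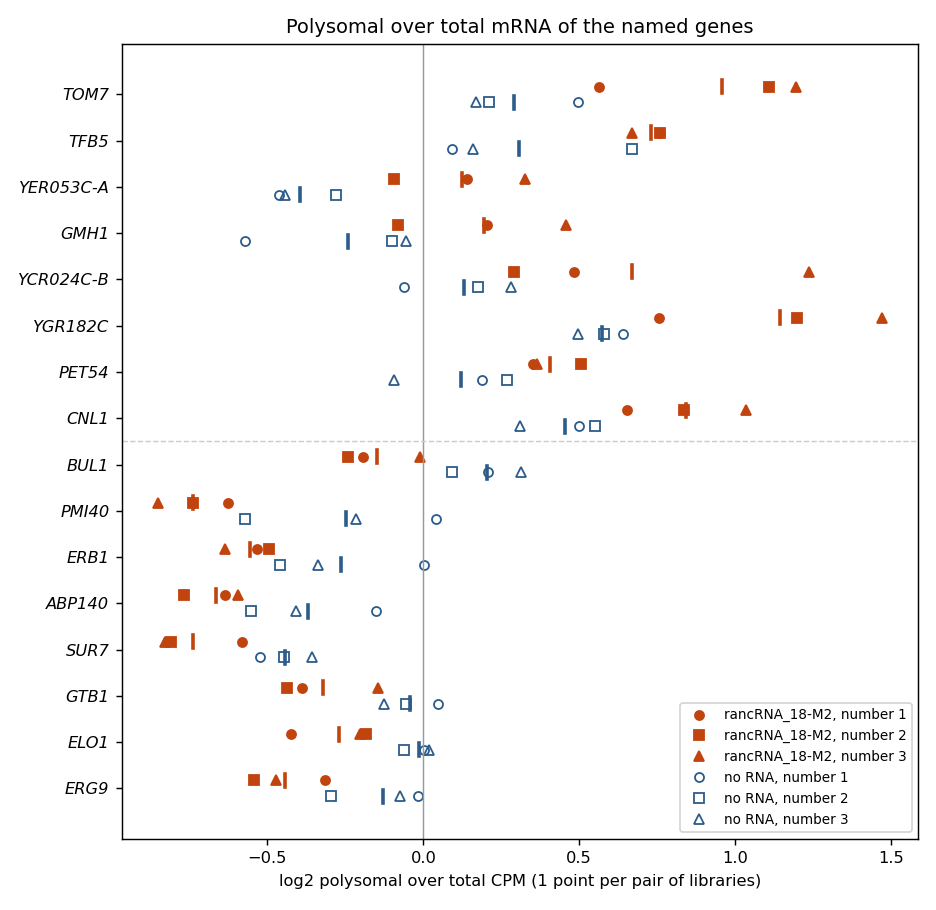
Log2 polysomal over total CPM of the 16 named genes, with rancRNA_18-M2 (filled, upper row of each gene) above no RNA (open, lower row), 1 point per replicate number and the mean as a bar. In 15 of the 16 genes the points of the groups do not overlap, GMH1 being the exception, and the selection rule favours such genes.

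The genes named on the higher side had a median coding length of 267 nt, those on the lower side 1611 nt and all tested genes 1236 nt. Relative to genes of like coding length, the change of TOM7 was 0.46 and that of TFB5 0.22, while BUL1 stayed at -0.33 and PMI40 at -0.44. Coding GC content differed too, at 33.0 to 37.4% on the higher side (YGR182C has no value) and 39.0 to 45.7% on the lower. All genes had a median of 39.8%. With the GC correction and replicate block described below, YCR024C-B was at 0.38, GMH1 at 0.31 and CNL1 at 0.32. With the block alone they were at 0.61, 0.45 and 0.41. BUL1 was at -0.34 and PMI40 at -0.44, against -0.36 and -0.47 with the block alone. The parts of length and GC content in these values were not tested, and both are described further on.

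The 32 gene lists are described by their counts and medians beside those of all genes, of which 52.4% lay above 0 with a median of 0.0077. No member of any list was called, and the median of 12 lists lay above 0 and that of 20 below. The median was within 0.1 of 0 in 21 lists, and 10 lists had the same direction in all 3 numbers. The 6 median ratios of a list did not overlap between the groups in 4 of 32 lists, and single genes did not in 5.8%. Of the 20 ways to split 6 values into 3 and 3, a share of 0.1 separates them. The count of 4 lists is near that share, so non-overlap of a list below is given as a value only. Among the parts of the translation machinery, the cytosolic ribosomal protein genes and the aminoacyl-tRNA synthetase genes stood on opposite sides of 0.

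The cytosolic ribosomal protein genes had a change above 0 in 126 of 138, with a median of 0.15. Their median log2 ratio was 0.76, 0.83 and 0.67 with rancRNA_18-M2 and 0.40, 0.87 and 0.55 with no RNA. Ribosomal protein mRNAs were thus relatively enriched in polysomes in every pair of libraries, and the groups overlapped. By number, the median change was 0.35, -0.04 and 0.07, so most of it came from number 1. Without number 1 the list's median was 0.03, and without total replicate 1 of no RNA it was -0.08. RPS28B, of the small subunit, had log2 ratios of 0.67, 0.57 and 0.71 with rancRNA_18-M2 and -0.03, 0.56 and 0.23 with no RNA, for a change of 0.39 (SE 0.27). RPS27A was at 0.39 (SE 0.31) and RPL39, of the large subunit, at 0.43 (SE 0.40). Many ribosomal protein genes have a near-identical copy, so reads may be split between copies and single genes are uncertain. The genes are short, with a median coding length of 434 nt, and relative to genes of like length the median was 0.04.

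The aminoacyl-tRNA synthetase genes, whose enzymes load tRNAs with amino acids, had a change below 0 in all 21 members, with values from -0.30 to -0.02 and a median of -0.18. Their median log2 ratio was -0.31, -0.38 and -0.49 with rancRNA_18-M2 and -0.04, -0.30 and -0.24 with no RNA, which did not overlap. By number, the median change was -0.24, -0.02 and -0.27. WRS1, for tryptophan, had log2 ratios of -0.11, -0.38 and -0.43 with rancRNA_18-M2 and 0.03, -0.16 and -0.02 with no RNA, for a change of -0.25 (SE 0.23). GUS1, for glutamate, was at -0.30 (SE 0.27) and KRS1, for lysine, at -0.29 (SE 0.30). The list's median was -0.14 relative to genes of like coding length, -0.16 with the GC correction and replicate block described below, and -0.25 to -0.09 over all the alternatives tried. A change below 0 in all 3 numbers was seen in 8 of the 21 members (38.1%), against 10.9% of all genes. This was not particular to the synthetases. The share was 44.8% in cytosolic chaperones, 44.4% in elongation and termination factors, 41.2% in purine biosynthesis and 39.1% in the tricarboxylic acid cycle.

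Other translation lists lay nearer to 0. Of the translation initiation factors 8 of 31 lay above 0, with a median of -0.05 and RPG1, a subunit of eIF3, at -0.25 (SE 0.21). Of the elongation and termination factors 6 of 18 lay above 0, with a median of -0.07 and SUP35, the release factor eRF3, at -0.18 (SE 0.27). That median was -0.0011 without number 3 and -0.28 without polysomal replicate 1 of rancRNA_18-M2. Of the 134 ribosome biogenesis genes 37 lay above 0, with a median of -0.05, and by number -0.08, -0.04 and -0.05, with LSG1, a GTPase of late large subunit maturation, at -0.23 (SE 0.19). The tRNA modification enzymes, the class to which the deleted TRM10 belongs, had a median of -0.03 with 21 of 51 above 0. THG1, which adds a guanosine to histidine tRNA, stood at 0.33 (SE 0.27). Of the mitochondrial ribosomal protein genes 53 of 77 lay above 0, with a median of 0.04, and by number 0.09, -0.06 and 0.10. Relative to genes of like coding length, 32 of the 77 lay above 0 with a median of -0.02, and leaving out libraries gave -0.07 to 0.20.

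In central metabolism, the glycolysis and fermentation genes had the lowest median of all lists, -0.22, with 3 of 24 above 0. The median log2 ratio was -0.31, -0.71 and -0.82 with rancRNA_18-M2 and -0.34, -0.52 and -0.30 with no RNA, and the groups overlapped. By number the median change was 0.08, -0.21 and -0.53. The list's median was -0.0092 without number 3, and -0.45 without polysomal replicate 1 of rancRNA_18-M2. Within the fractions the median log2 fold change of rancRNA_18-M2 over no RNA was 0.08 in polysomal and 0.27 in total mRNA, where no gene was called in either fraction. PDC1, pyruvate decarboxylase, had log2 ratios of -0.34, -0.85 and -1.26 with rancRNA_18-M2 and -0.35, -0.65 and -0.50 with no RNA, for a change of -0.29 (SE 0.37). TDH1, a glyceraldehyde-3-phosphate dehydrogenase, was at -0.30 (SE 0.39). Neither direction held in all 3 numbers for the list.

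Of the genes of the tricarboxylic acid cycle, 3 of 23 lay above 0, with a median of -0.15 and median changes of -0.05, -0.12 and -0.27 by number. Their median log2 ratios of -0.18, -0.15 and -0.41 with rancRNA_18-M2 lay below the -0.13, -0.09 and -0.10 with no RNA. KGD2, of the 2-oxoglutarate dehydrogenase complex, had -0.45, -0.52 and -0.51 with rancRNA_18-M2 and -0.23, -0.26 and -0.25 with no RNA, for a change of -0.24 (SE 0.34). With the replicate block the change of KGD2 was again -0.24 (SE 0.15), and it was not called. Without total replicate 1 of no RNA the list's median was -0.03. Of the subunits of oxidative phosphorylation 33 of 45 lay above 0, with a median of 0.10 that was -0.04 relative to genes of like length. Their median by number was 0.15, -0.03 and 0.11, and NDI1, the internal NADH dehydrogenase, stood at -0.25 (SE 0.29) while ATP17, a small subunit of ATP synthase, stood at 0.26 (SE 0.39).

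Of the cytosolic chaperone genes, 3 of 29 lay above 0, with a median of -0.14. Their median log2 ratio was -0.29, -0.46 and -0.52 with rancRNA_18-M2 and -0.13, -0.27 and -0.28 with no RNA, which did not overlap. By number the median change was -0.05, -0.14 and -0.26. SSE2, a nucleotide exchange factor of Hsp70, had -0.38, -0.45 and -0.57 with rancRNA_18-M2 and -0.08, -0.23 and -0.28 with no RNA, for a change of -0.27 (SE 0.23). SSA2, an Hsp70, had -0.63, -0.81 and -1.13 with rancRNA_18-M2 and -0.43, -0.59 and -0.57 with no RNA, for a change of -0.30 (SE 0.32). In the general stress response list 9 of 31 genes stood above 0 (median -0.11). Within it the short HOR7 and DDR2 stood at 0.48 (SE 0.42) and 0.31 (SE 0.28), against the direction of the median. PGM2 stood with the median at -0.29 (SE 0.30), and its groups did not overlap.

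Biosynthetic lists lay below 0 by small amounts. In amino acid biosynthesis 12 of 61 genes lay above 0 (median -0.11), where TRP3 and TRP5, both of tryptophan synthesis, were at -0.32 (SE 0.28) and -0.30 (SE 0.28). In purine biosynthesis 3 of 17 genes lay above 0 (median -0.11), and in ergosterol synthesis 5 of 29 (median -0.08). Leaving out libraries or numbers moved these medians widely, to -0.21 and -0.0093 for amino acid, -0.27 and -0.02 for purine and -0.17 and -0.0078 for ergosterol synthesis. The values nearest 0 came without number 3 (for ergosterol synthesis with the replicate block), and the lowest without polysomal replicate 1 of rancRNA_18-M2 for the amino acid and purine lists and without polysomal replicate 2 of no RNA for the ergosterol list. The median ratios of the ergosterol list, which holds ERG9, were -0.16, -0.16 and -0.27 with rancRNA_18-M2 and -0.12, -0.13 and -0.10 with no RNA, the fourth list in which the groups did not overlap. ERG7, lanosterol synthase, had log2 ratios of -0.16, -0.07 and -0.12 with rancRNA_18-M2 and 0.15, 0.02 and 0.15 with no RNA. Its change of -0.23 (SE 0.21) was not called. In cell wall proteins and remodelling 8 of 38 genes lay above 0 (median -0.07), and in hexose transport and galactose use 7 of 23 (median -0.09).

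Lists with a median near 0 included the proteasome (-0.01, 17 of 37 above 0), iron uptake (0.0013, 14 of 26), mating-type specific genes (0.0087, 11 of 20), the LSM ring and mRNA decay factors (-0.0046, 16 of 32) and the mRNAs with upstream open reading frames (-0.04, 11 of 30). The medians of the proteasome and LSM lists took the other sign with DESeq2-style size factors. Of the 11 histone genes 10 lay above 0, with a median of 0.15, but by number 0.36, -0.31 and 0.18. Relative to genes of like coding length, 6 of the 11 lay above 0 with a median of 0.0023, and the median was -0.06 without total replicate 1 of no RNA. Among single members, ERV14, a cargo receptor from the endoplasmic reticulum to the Golgi, was at 0.50 (SE 0.38). ATX1, a copper chaperone, had log2 ratios of 0.87, 1.10 and 1.31 with rancRNA_18-M2 and 0.85, 0.68 and 0.70 with no RNA, for a change of 0.38 (SE 0.29).

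Noncoding RNAs, which poly(A) selection leaves as a remainder, had the highest median, 0.43, with 38 of 48 tested members above 0. A further 40 of the 88 did not pass the filter on low counts. Their median log2 ratio was -0.91, -1.25 and -0.69 with rancRNA_18-M2 and -1.14, -1.41 and -1.61 with no RNA, and the median level of a member was 1.55 CPM. They held 0.00661 to 0.0112% of the reads of polysomal and 0.0174 to 0.0276% of total libraries with rancRNA_18-M2, against 0.0071 to 0.0121% of polysomal and 0.0234 to 0.0314% of total libraries with no RNA. The list's median was 0.05 without number 3 (0.03 with the replicate block), and 0.16 without polysomal replicate 3 of no RNA, the deepest library. Without total replicate 2 of rancRNA_18-M2 it was 0.70. The part of the carry-over of non-polyadenylated RNA in this value was not tested.

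**Figure D4:**
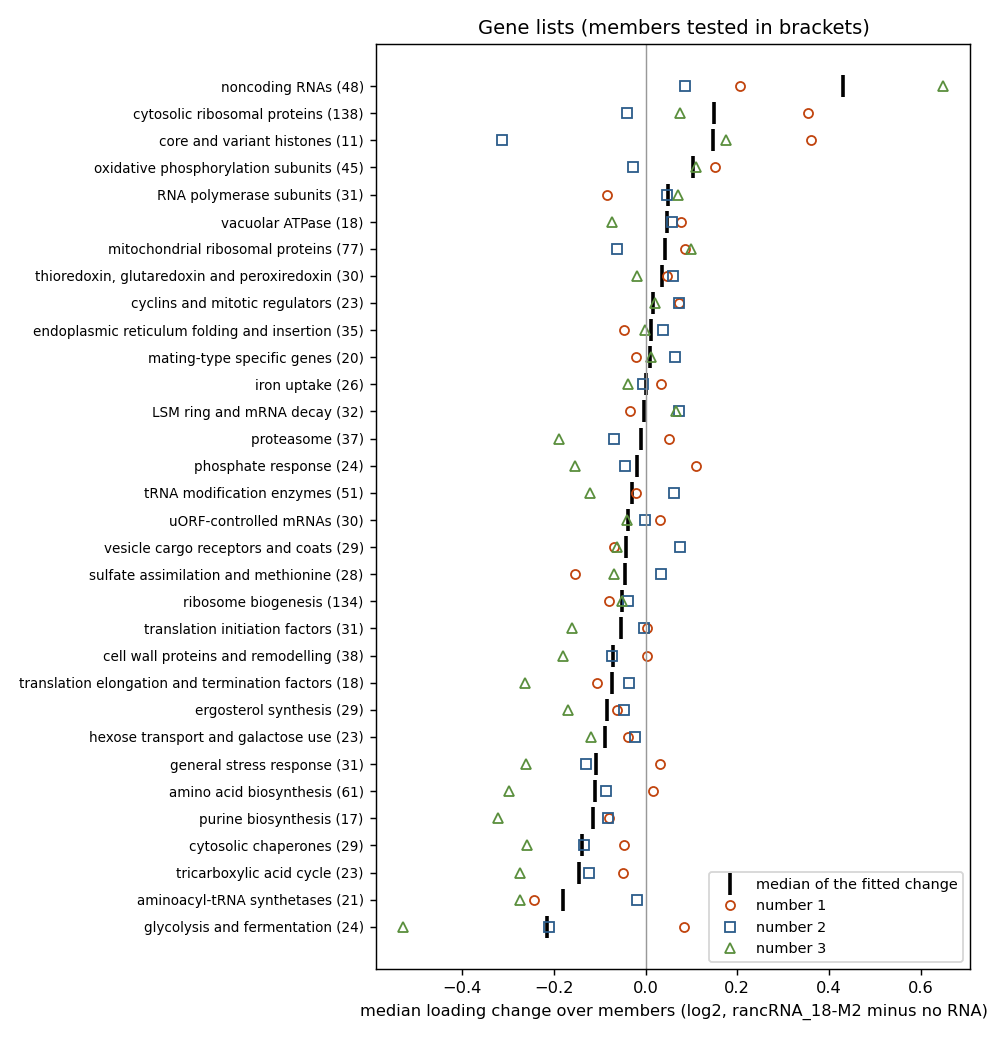
Median loading change of the tested members of each of 32 lists (number of members in brackets), in log2 units, as fitted over the 12 libraries (black bars) and in each replicate number (points). Medians run from -0.22 to 0.43, and the points of single numbers lie on both sides of 0 in 22 lists.

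The loading change varied with coding length in numbers 1 and 3. Over 5694 genes with a coding length, Spearman's rho with the change was -0.31, 0.04 and -0.22 in numbers 1, 2 and 3, and -0.33 with the fitted change. The shortest quintile of genes, 78 to 636 nt, had a median fitted change of 0.12 with 82.1% of 1139 genes above 0. By number that quintile stood at 0.20, -0.01 and 0.17. The medians of the longer quintiles were 0.02, -0.04, -0.04 and -0.03. Median loading itself fell from the shortest to the fourth quintile in all 6 pairs of libraries. From the fourth to the longest quintile it rose, except in number 2 with no RNA. The slope of loading per doubling of coding length was -0.17, -0.15 and -0.13 with rancRNA_18-M2 (mean -0.15 ± 0.02, SD, n = 3) and -0.07, -0.16 and -0.06 with no RNA (mean -0.10 ± 0.06, SD, n = 3). The slopes of the groups overlap, since number 2 with no RNA lies among those with rancRNA_18-M2, and the difference of the means was -0.05. Without the ribosomal protein genes rho with the fitted change was -0.31 over 5556 genes.

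The change also varied with the GC content of the coding sequence, with opposite signs between numbers. Spearman's correlation coefficient was 0.51 in number 1, -0.49 in number 2 and -0.47 in number 3. The lowest quintile of GC content, 26.0 to 37.4%, had median changes of -0.18, 0.18 and 0.19 in numbers 1, 2 and 3, and the highest quintile, 42.9 to 59.1%, had 0.29, -0.20 and -0.18. Loading correlated with GC content at 0.18, -0.05 and -0.33 with rancRNA_18-M2 and at -0.27, 0.26 and -0.02 with no RNA, so the sign varied between numbers in both groups. After the trend with GC content was removed in each library, the changes in numbers 1 and 2, 1 and 3, and 2 and 3 correlated at -0.17, 0.14 and 0.11. The SD of the change was then 0.34, 0.30 and 0.28, against 0.38, 0.33 and 0.32 without the correction in the same genes. With this correction 0 of 5694 genes were called, and 4 had an unadjusted p under 0.05 without the block and 94 with it. The trend with GC content is shared across the genes of a library, and its part in the changes of single genes was not tested otherwise.

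**Figure D5:**
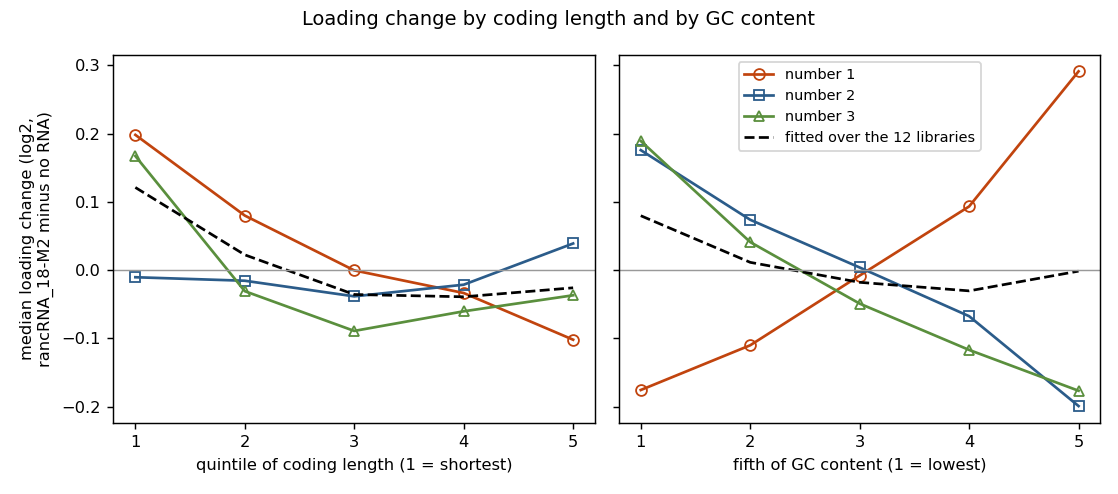
Median loading change (rancRNA_18-M2 minus no RNA, log2) by quintiles of coding length (left) and of GC content (right), in each replicate number and as fitted over the 12 libraries. Number 1 rises with GC content to 0.29 while numbers 2 and 3 fall to -0.20 and -0.18, and short genes lie above 0 in numbers 1 and 3 but not in number 2.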

How the data were processed

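The authors deposited unnormalized counts of reads per gene, with a file for each library. Per the submitters' processing notes, the tools were FastQC, HISAT2 and featureCounts. Versions, genome build, annotation and counting strand are not given in the sources used, so overlapping and antisense genes are uncertain. Poly(A) RNA was made into libraries with a strand-keeping kit, per the labels' protocols. Of 7126 gene IDs, 6048 matched locus tags of the RefSeq assembly R64, which served for names, coding length and GC content only, and no coordinates or sequences are given.

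Groups and numbers came from the sample titles. Nothing states that replicates were separate cultures, so p-values measure the spread between these samples, which may be technical. The 12 libraries were fitted with edgeR 4.0.16 in R 4.3.3 (robust quasi-likelihood F-test, TMM scaling, filterByExpr on the 4 groups, 1 coefficient per group), which left 5949 genes. The tested value was the polysomal minus total difference with rancRNA_18-M2 minus that with no RNA. Benjamini-Hochberg adjustment covered all genes, with a threshold of 0.05. Ratios by number are from TMM-scaled log2 CPM with a prior count of 2. Intervals of fitted changes are at the 95% level. Fits with the replicate number as a block stand beside results where they move a count. The numbers pair the samples by the data and not by a statement in the labels: deviations of same-numbered libraries correlated in all 18 pairs (r from 0.494 to 0.835), against -0.571 to 0.011 in the 36 pairs with different numbers. Deviations were taken from the mean of the 3 libraries of a group and sum to 0 within it. Positive values in same-numbered pairs therefore push the others below 0, so the 36 pairs are no separate evidence.

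Genes were named by a rule: TRM10, then called genes, and with none called the 8 per direction with the smallest p, a mean of at least 20 CPM and 1 direction in all 3 numbers, plus up to 3 members per list with the smallest p at that level. The comparison, the members and the 32 lists were chosen with earlier results of these data known. The scripts were tested on simulated data, with counts drawn independently for each library. The simulation held no deviations shared by replicate number and no trends with GC content or length. It therefore cannot show how the fit behaves where these are present, as they are here. Alternatives were other scalings and filters, DESeq2 1.42.0, limma 3.58.1, blocks, left-out libraries, GC correction and length adjustment. The last 2 were chosen after seeing the data.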

Additional observations from a re-analysis of the deposited data

How the results depend on the processing

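The loading change had 0 called genes under each of 29 alternatives. With the replicate block, 0 genes were called and 49 had an unadjusted p under 0.05, and over all fits that number was 1 to 212. The 16 named genes kept their direction in all 477 values. The rule chose them for 1 direction in all 3 numbers of these same libraries, which favours that outcome. It is therefore no separate support for their direction. The adjusted p of the named genes stayed at 0.97 or above. Leaving out libraries or numbers moved the size of 12 of them by over 1.5 times, with YCR024C-B at 0.33 to 0.85, YGR182C at 0.33 to 0.85, CNL1 at 0.23 to 0.59, TOM7 at 0.44 to 0.997, PMI40 at -0.68 to -0.31, ERB1 at -0.42 to -0.15 and ELO1 at -0.33 to -0.14, and TFB5, PET54, BUL1 and ERG9 by less. Of 957 alternative medians of lists, 847 lay within the spread between numbers and 110 moved by more. The spread was each list's own SD, so lists that varied most between numbers passed most easily. The glycolysis list, with an SD of 0.31, stayed within it in all alternatives although its median ran from -0.45 to -0.0092. The count of 847 therefore does not show that the medians were stable. The sign of the median was the same in all alternatives for 9 lists (aminoacyl-tRNA synthetases, elongation and termination factors, tricarboxylic acid cycle, glycolysis, cytosolic chaperones, amino acid, purine and ergosterol synthesis, and noncoding RNAs) and changed in at least 1 alternative for the other 23. The size was less stable: leaving out a library or number brought the median of 7 of the 9 to between -0.03 and 0.03, while those of the synthetases and chaperones came no nearer to 0 than -0.09. Counts for polysomal against total mRNA did depend on the setting. With rancRNA_18-M2 (10 in the fit given first) they were 338 with DESeq2, 1852 with the replicate block, 23 with all 15 distinct libraries and 1 to 22 without 1 library. Without polysomal replicates 1, 2 and 3 of rancRNA_18-M2 they were 22, 1 and 6, without its total replicates 1 and 2 they were 2 and 6, and without total replicate 2 of no RNA 6. With no RNA (12) they were 90 with DESeq2, 1204 with the replicate block and 2 to 12 without 1 library. Without polysomal replicates 1, 2 and 3 of no RNA they were 7, 3 and 2, and without its total replicates 1 and 3 they were 4 and 7. The cause was not tested. The SD of the mean change across genes was 0.21 with a prior count of 2, 0.25 with 0.5 and 0.17 with 10. With 3 libraries per group the intervals of genes under 20 CPM remained wide.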
